A study of Mus musculus with 4 samples.

Results

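The genes described here encode the chromosome-organizing complex cohesin, its main regulators and the insulator protein CTCF. They are 10 of the 24411 genes listed in each library and were taken by symbol: Ctcf, Rad21, Smc1a, Smc3, Stag1, Stag2, Nipbl, Wapal (now named Wapl), Pds5a and Pds5b. Late two-cell embryos of the ICR strain, produced by in vitro fertilization and collected at 36 hpi (hours post-insemination), were profiled by polyadenylated RNA-seq. Control embryos were cultured with DMSO, the solvent, and treated embryos with 6 µM 10074-G5, a small molecule that binds MYC and blocks its pairing with MAX. Each group had 2 libraries, each a pool of 10 embryos with no genetic alteration named in the labels. The paper dates the start of treatment to 6 hpi and the growth notes date it to 3 hpi.

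Cohesin is a ring built from the ATPases SMC1A and SMC3 and the kleisin RAD21, to which STAG1 or STAG2 binds. NIPBL helps load the ring onto DNA and drives its movement, PDS5A and PDS5B regulate it, and WAPL opens it so that it leaves chromatin. The ring holds sister chromatids together from S phase to mitosis and extrudes chromatin loops that stop at sites bound by CTCF. Oocytes use meiotic forms of several subunits, and in the two-cell embryo transcripts stored in the oocyte coexist with those newly made from the embryonic genome.

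The libraries held from 18206584 to 20718690 expected counts (the fragments assigned to genes). DMSO replicate 1 stood apart from the other libraries, with a Pearson's r of 0.887 to DMSO replicate 2 and of 0.825 and 0.844 to the inhibitor-treated libraries, against 0.912 to 0.931 among the other 3 (log2 CPM over 13549 genes, which are not independent replicates). All 6 two-cell markers, among them Zscan4d and Zfp352, had at least 10 counts in every library. Their summed FPKM was 1132 and 2834 in the DMSO libraries and 4259 and 3782 in the treated libraries, mostly from Gm5662. In CPM the treated libraries were higher without overlap for 4 of the 6, and the groups overlapped for Zscan4c and Tdpoz4. The summed FPKM of 8 oocyte markers was 879 and 2109 in DMSO and 4430 and 3632 in treated libraries, mostly from Oosp1. The groups did not overlap for 7 higher markers and 1 lower marker (Zp3). Of all tested genes, 28.9% were higher and 28.3% lower in treated libraries without overlap. Of 10 cumulus and granulosa markers, 4 (Ptx3, Foxl2, Inha and Inhba) were at 0 counts everywhere, and the sum was 22.1 and 13.0 FPKM in DMSO and 9.94 and 6.79 FPKM in treated libraries, mostly from Amhr2. Of 7 sperm markers, 3 (Prm1, Tnp2 and Smcp) were at 0 counts everywhere, and the sum was 2.7 and 4.44 FPKM in DMSO and 16.1 and 9.43 FPKM in treated libraries. The part of these marker differences in the results below was not tested. In pools of whole embryos, fewer cells with a transcript and less of it per cell cannot be told apart.

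All 10 genes were well above the detection limit. Their levels in FPKM (fragments corrected for transcript length and library depth, a scale on which genes can be compared) spanned from 5.38 for Pds5b to 228 for Wapal. The smallest count of any of them in a library was 747, for Smc1a, for which counting error alone is 3.66%. By mean FPKM over the 4 libraries the order was Wapal (198.5), Rad21 (123), Ctcf (62.7), Stag2 (39.3), Smc3 (33.7), Pds5a (17.6), Stag1 (15.4), Nipbl (13.3), Smc1a (13.0) and Pds5b (7.40). The release factor transcript Wapal ranked 700 among the listed genes and Pds5b ranked 5853. The ranges over libraries did not overlap between Rad21 and Ctcf, between Ctcf and Stag2, or between Smc1a and Pds5b. The other neighbours in this order overlapped in their ranges and were not separated, and the ranges of Wapal and Rad21 met through DMSO replicate 1. The sum over the 10 genes was 493 and 580.3 FPKM in DMSO and 518 and 505 FPKM in treated libraries.

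**Figure D1:**
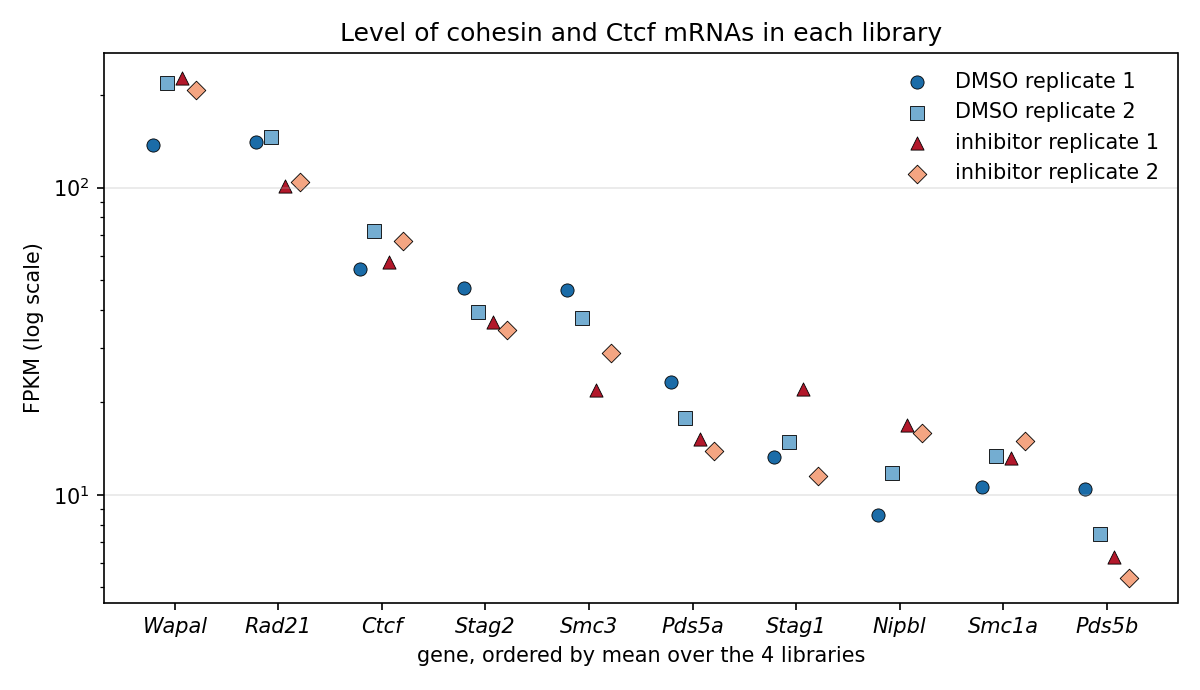
The vertical axis gives the deposited FPKM on a log scale for each of the 10 cohesin and Ctcf genes, ordered by mean level, with 1 point for each of the 4 libraries. Wapal and Rad21 lie above 100 FPKM in every library, and the 2 treated points of Rad21, Smc3, Stag2, Pds5a and Pds5b lie below both DMSO points.

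The comparison of treated with control embryos asks whether blocking MYC and MAX pairing altered transcripts in the period of major zygotic genome activation. A gene was called when its log2FC was beyond 1 in size and its p from the edgeR quasi-likelihood fit, adjusted by Benjamini-Hochberg over all tested genes, was below 0.05, and none of the 10 genes met this. This test called 0% of the 13549 tested genes in either direction. DESeq2 called 0 of the 10 genes and 4.18% of the tested genes. Before adjustment, 1 of the 10 genes (Smc3) and 14.9% of the tested genes had an edgeR p below 0.05. The log2FC was below 0 for 6 and above 0 for 4 of the 10 genes, with 48.5% of all tested genes below 0. The median log2FC was -0.30 for the 10 genes and 0.04 for all tested genes. In CPM (counts scaled to the TMM-normalized library total) both treated libraries lay below both DMSO libraries for 5 genes, namely Rad21, Smc3, Stag2, Pds5a and Pds5b, and above them for 1, Nipbl. The same holds for 28.3% of tested genes in the lower and 28.9% in the higher direction, and for 57.3% in either, so that a separation of 6 of 10 genes is close to the background.

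The size of these differences varied with which DMSO library was used. In log2 CPM, DMSO replicate 1 lay farther than DMSO replicate 2 from the mean of the treated libraries for 8 of the 10 genes. Ctcf and Stag1 were the exceptions. DMSO replicate 1 was also the farther library for 78.3% of the genes with counts in every library. The DMSO libraries were farther apart than the treated libraries for 7 of the 10 genes and for 70.5% of all those genes. With DMSO replicate 1 set aside, DMSO replicate 2 was above both treated libraries for 6 of the 10 genes, where Ctcf joined the 5 named above, and for 38.0% of tested genes. It was below both for 1 of the 10 genes (Nipbl) and for 37.2% of tested genes. Without DMSO replicate 2, the same test called Smc3 and Pds5b, 2 of the 10 genes, as lower, where it called 14.9% of the tested genes as lower. That fit sets DMSO replicate 1, the library that stood apart, alone against both treated libraries, so that its spread comes from the treated pair and the lone DMSO library is assumed to vary like them.

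**Figure D2:**
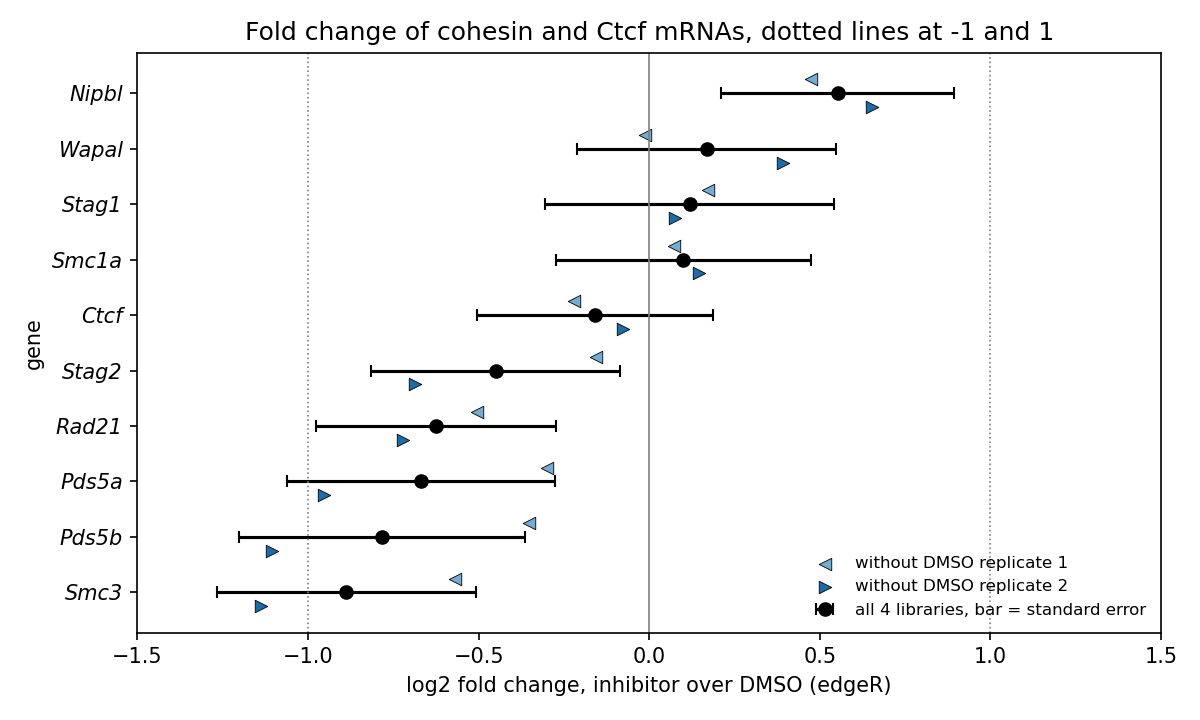
The horizontal axis gives the log2 fold change of treated over DMSO embryos by edgeR for each gene, with black points and standard error bars for all 4 libraries and triangles for fits that leave out either DMSO library. Without DMSO replicate 1 the values of all genes but Ctcf and Stag1 move toward 0. The log2FC of Rad21 moves from -0.63 to -0.51, and is -0.72 without DMSO replicate 2.

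Among the ring subunits, Rad21 and Smc3 read lower in both treated libraries than in either DMSO library, and Smc1a did not, while none passed the test. Rad21 encodes the kleisin that closes the ring and that separase cuts at anaphase, and lies on chromosome 15 of GRCm38.p6 (the mm10 build) from 51962604 to 51993538 on the minus strand. Its FPKM was 141 and 146 in the DMSO libraries and 101 and 104 in the treated libraries. The groups did not overlap. In FPKM the replicates of each group were close together. They stood at 143 ± 3.52 FPKM (SD, n = 2) in DMSO and 103 ± 1.91 FPKM (SD, n = 2) in inhibitor libraries. In CPM, the scale of the test, the DMSO replicates were farther apart, at 537 and 468, against 325 and 327 in treated libraries. The log2FC of Rad21 was -0.63 (SE, the standard error, 0.35, edgeR adjusted p = 0.407) and did not pass the test. Over the alternatives it lay between -0.72 and -0.48, the narrowest range among the 5 lower genes.

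Smc3 encodes an ATPase of the ring whose acetylation locks cohesin on DNA, and lies on chromosome 19 from 53600396 to 53645831 on the plus strand with 29 exons. Its FPKM was 46.4 and 37.6 in DMSO and 21.9 and 28.9 in treated libraries. Both treated libraries were below both DMSO libraries, and the spread within each group was also wide, at 42.0 ± 6.22 FPKM (SD, n = 2) against 25.4 ± 4.92 FPKM (SD, n = 2). Its log2FC of -0.89 was the lowest of the 10 genes (SE 0.38, edgeR unadjusted p = 0.04996, just below 0.05, and adjusted p = 0.336). The adjusted p was 0.157 by DESeq2. Leaving out DMSO replicate 1 gave a log2FC of -0.57, and leaving out DMSO replicate 2 gave -1.14. The latter had an edgeR adjusted p of 0.00954, from 1 DMSO library and the spread of the treated pair.

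Smc1a encodes the other ATPase, and lies on chromosome X from 152016428 to 152061973. Its FPKM was 10.6 and 13.4 in DMSO and 13.1 and 15.01 in treated libraries, and the groups overlapped. Its log2FC was 0.10 (SE 0.37, edgeR adjusted p = 0.911). SMC1A and SMC3 stand in equal number in the ring, yet their transcripts did not stand in equal amount. This comparison leaves out Smc1b, the meiotic form of Smc1a, which was 2.46 to 4.21 times the level of Smc1a over the libraries. Smc1b alone was above Smc3 in every library except DMSO replicate 1, where it was 35.8 against 46.4 FPKM. The excess of Smc3 therefore holds against Smc1a only. The ratio of Smc3 to Smc1a FPKM was 4.39 and 2.81 in DMSO and 1.67 and 1.92 in treated libraries. The ratio of Rad21 to Smc1a was 13.3 and 10.9 in DMSO and 7.72 and 6.94 in treated libraries. Both ratios were lower in both treated libraries than in either DMSO library. The ratio of Rad21 to Smc3 was 3.04 and 3.88 in DMSO and 4.63 and 3.61 in treated libraries, and its groups overlapped. These ratios were chosen after the values were seen and carry no test.

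The STAG transcripts differed in how well the replicates held together. Stag2 encodes the STAG subunit that predominates in many somatic cells, and lies on chromosome X from 42149297 to 42277186. Its FPKM was 47.3 and 39.35 in DMSO and 36.4 and 34.3 in treated libraries. The groups did not overlap, but DMSO replicate 2 was nearer to the treated libraries than to DMSO replicate 1. The log2FC of Stag2 was -0.45 (SE 0.37, edgeR adjusted p = 0.549), and leaving out DMSO replicate 1 gave -0.15. Stag1 encodes the paralog with a role at telomeres and in long-lived cohesin, and lies on chromosome 9 from 100597709 to 100958544 with 34 exons. Its FPKM was 13.3 and 14.9 in DMSO and 22.05 and 11.5 in treated libraries. The treated replicates of Stag1 enclosed both DMSO libraries, and its log2FC of 0.12 (SE 0.42, edgeR adjusted p = 0.908) was -0.40 without inhibitor-treated replicate 1 and 0.52 without inhibitor-treated replicate 2. Stag2 was above Stag1 in every library, by 3.56-fold and 2.65-fold in DMSO and 1.65-fold and 2.98-fold in treated libraries. The log2 ratio of Stag2 to Stag1 was 1.61 ± 0.30 (SD, n = 2) in DMSO and 1.14 ± 0.60 (SD, n = 2) in inhibitor libraries, and the groups overlapped (exact permutation test, two-sided p = 0.667).

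Nipbl, which encodes the loader, was the only one of the 10 genes with both treated libraries above both DMSO libraries. It lies on chromosome 15 from 8289824 to 8465315 on the minus strand with 47 exons. Its FPKM was 8.63 and 11.8 in DMSO and 16.9 and 15.9 in treated libraries. The mean was 10.2 ± 2.22 FPKM (SD, n = 2) in DMSO and 16.4 ± 0.714 FPKM (SD, n = 2) in inhibitor libraries. Its log2FC was 0.55 (SE 0.34, edgeR adjusted p = 0.441) and lay between 0.47 and 0.69 over the alternatives, without passing the test in any. The effective length of Nipbl, an RSEM estimate that follows the mix of its 2 transcripts, ranged only from 10003 to 10093 bases over the libraries. Its partner Mau2 was far lower, at 2.35 and 1.35 FPKM in DMSO and 2.50 and 1.69 FPKM in treated libraries. The log2FC of Mau2 was 0.00 (SE 0.58, edgeR adjusted p = 0.999).

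Wapal encodes the release factor and had the highest level of the 10 genes, on chromosome 14 from 34672379 to 34747983. Its FPKM was 138 and 219.7 in DMSO and 228 and 209 in treated libraries. DMSO replicate 1 was low, and the other 3 libraries were close to each other. The log2FC of Wapal was 0.17 (SE 0.38, edgeR adjusted p = 0.848) and -0.01 without DMSO replicate 1. It made up 28.0% of the summed FPKM of the 10 genes in DMSO replicate 1 and 37.9% to 43.9% in the other libraries. Wapal was 16.0 and 18.7 times the level of Nipbl in DMSO and 13.5 and 13.1 times in treated libraries. The log2 ratio was 4.10 ± 0.16 (SD, n = 2) in DMSO and 3.73 ± 0.03 (SD, n = 2) in inhibitor libraries, with no overlap between the groups. With 2 libraries a group, the smallest two-sided p of an exact permutation test is 0.333, which is the p of this ratio, and it was 0.667 after adjustment over the 4 ratios tested.

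The PDS5 paralogs both read lower in the treated libraries, without passing the test, and their ratio to each other varied little. PDS5 proteins bind the ring beside RAD21 and take part both in its release with WAPL and in its protection with sororin. Pds5a, on chromosome 5 from 65605719 to 65698236, had 23.4 and 17.85 FPKM in DMSO and 15.15 and 13.9 FPKM in treated libraries. Pds5b, on the same chromosome from 150673713 to 150810669, had 10.5 and 7.45 FPKM in DMSO and 6.30 and 5.38 FPKM in treated libraries. In both genes DMSO replicate 1 was the highest library and the groups did not overlap. The log2FC was -0.67 for Pds5a (SE 0.39, edgeR adjusted p = 0.421) and -0.78 for Pds5b (SE 0.42, edgeR adjusted p = 0.393). Without DMSO replicate 1 these values were -0.30 and -0.35. Pds5a was from 2.23 to 2.58 times the level of Pds5b over the 4 libraries. The log2 ratio of Pds5b to Pds5a was -1.20 ± 0.07 (SD, n = 2) in DMSO and -1.30 ± 0.07 (SD, n = 2) in inhibitor libraries, a difference of -0.10 with no overlap between the groups (exact permutation test, two-sided p = 0.333, the smallest possible, and 0.667 after adjustment over the 4 ratios).

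Ctcf encodes the zinc finger protein that halts loop extrusion, and lies on chromosome 8 from 105636474 to 105682922. Its FPKM was 54.4 and 72.4 in DMSO and 57.3 and 66.9 in treated libraries. In FPKM the treated libraries lay between the DMSO libraries. In CPM inhibitor-treated replicate 1 was below both DMSO libraries, and the groups overlapped on both scales. The log2FC of Ctcf was -0.16 (SE 0.35, edgeR adjusted p = 0.842) and lay between -0.26 and -0.02 over the alternatives. Exons of Ctcf overlap exons of Agrp, which had 23 to 92 counts in a library against at least 3690 for Ctcf, and of a noncoding gene, both on the opposite strand. As the counting is not stated to use strand, reads in the shared exons cannot be told apart. Exons of Stag2 and Pds5a overlap unverified opposite-strand models in the GENCODE annotation, and those of the other 7 genes overlap no other annotated gene.

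**Figure D3:**
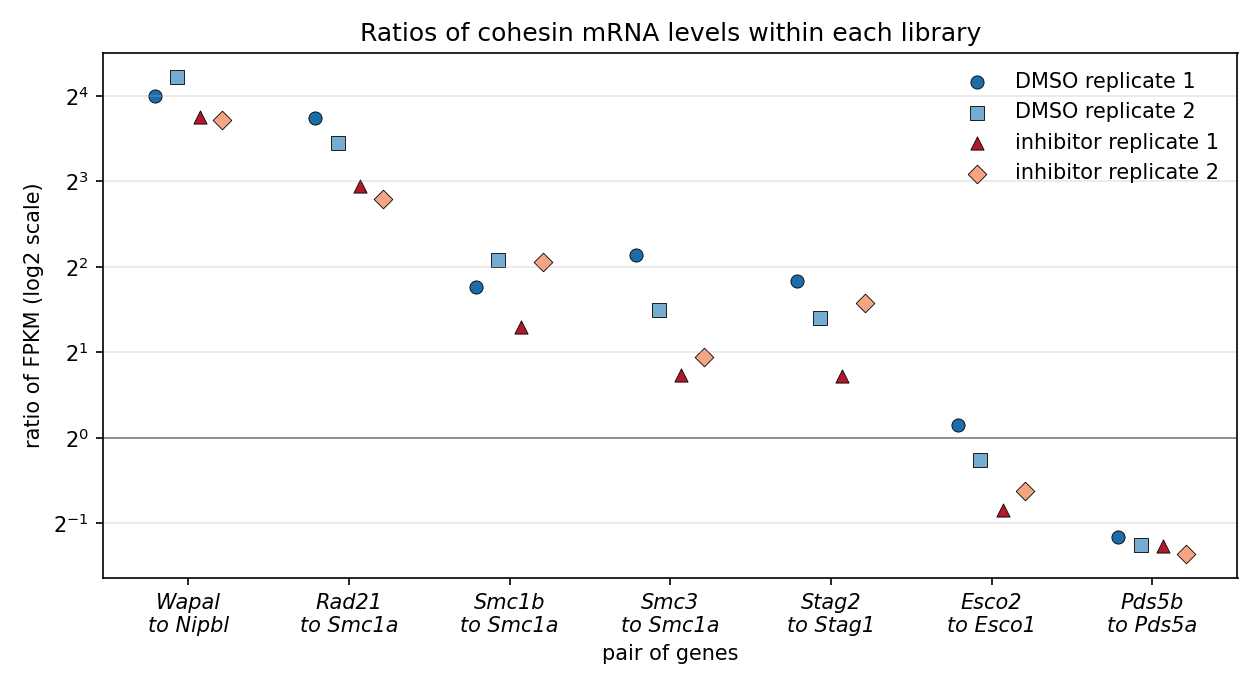
The vertical axis gives, on a log2 scale, the ratio of the FPKM of the first to the second gene of each pair within each of the 4 libraries, with a line at a ratio of 1. Both treated points lie below both DMSO points for Pds5b to Pds5a, Wapal to Nipbl, Rad21 to Smc1a, Smc3 to Smc1a and Esco2 to Esco1, while Smc1b to Smc1a and Stag2 to Stag1 overlap.

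RefSeq promoter sequences of GRCm38.p6, from 250 bases before to 50 bases after the start of a transcript, were at hand for 7 of the 10 genes (Ctcf, Smc1a, Smc3, Stag1, Wapal, Pds5a and Pds5b). The windows of Stag1 (100643198 to 100643497) and Wapal (34673678 to 34673977) lie wholly inside the gene spans given above. Those spans start at 100597709 and 34672379, so these windows belong to a start other than the first. MYC and MAX bind the E-box CACGTG and, more weakly, variants of it such as CACGCG. Searched on both strands, the letters CACGTG were in 0 of the 7 windows, in 7.15% of all 32851 promoter windows and in 9.71% of the 12996 windows of tested genes. The letters CACGCG were in 6 of the 7 windows (Smc3 had none), in 9.27% of all windows and in 16.2% of those of tested genes. The windows of the 7 genes were rich in CpG, with a median of 41 CpG sites against 19 for tested genes. Among the 39.6% of windows of tested genes with at least 23 CpG sites, the smallest number in the 7, CACGCG was in 29.0%. This cut does not match the median of 41 CpG sites, and the share at that CpG content was not computed. The GC box GGGCGG was in 7 of the 7 windows and in 58.4% of those of tested genes. The CCAAT box was in 4 of the 7 windows and 39.0% of those of tested genes, and CANNTG, which covers CACGTG but not CACGCG, was in 3 and 65.3%. The letters CCGGAAG (an ETS site), GCATGCGC (part of the NRF1 site) and AAGATGGCG (a YY1 site) were in none of the 7 and in 16.1%, 5.06% and 2.74% of those of tested genes. CNAGNNGGC, a loose form of the CTCF core, was in 3 of the 7 and in 27.6% of those of tested genes. Matches may overlap one another, and they are matches of letters and not sites shown to be bound. The 4 windows below are shown because Smc3, Pds5b and Pds5a had the lowest log2FC of the genes with a window and Wapal the highest level. They lie at chr19:53600146-53600445 (plus strand) for Smc3, chr5:65698187-65698486 (minus strand) for Pds5a, chr5:150673577-150673876 (plus strand) for Pds5b and chr14:34673678-34673977 (plus strand) for Wapal. Capitals mark CACGCG and GGGCGG in either orientation, and each reads 5′ to 3′ on the strand of its gene.
Smc3: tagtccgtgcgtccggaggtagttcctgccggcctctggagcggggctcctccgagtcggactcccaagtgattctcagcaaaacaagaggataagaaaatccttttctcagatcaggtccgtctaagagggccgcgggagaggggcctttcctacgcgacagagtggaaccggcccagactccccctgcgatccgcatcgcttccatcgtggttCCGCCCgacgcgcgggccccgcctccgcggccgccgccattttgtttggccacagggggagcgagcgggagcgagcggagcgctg
Pds5a: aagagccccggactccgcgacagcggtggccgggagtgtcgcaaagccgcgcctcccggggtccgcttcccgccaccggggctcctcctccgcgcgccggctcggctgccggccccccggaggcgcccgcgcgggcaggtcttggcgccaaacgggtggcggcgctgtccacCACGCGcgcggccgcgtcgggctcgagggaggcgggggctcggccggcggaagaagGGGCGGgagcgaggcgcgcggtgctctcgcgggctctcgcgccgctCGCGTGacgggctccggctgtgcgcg
Pds5b: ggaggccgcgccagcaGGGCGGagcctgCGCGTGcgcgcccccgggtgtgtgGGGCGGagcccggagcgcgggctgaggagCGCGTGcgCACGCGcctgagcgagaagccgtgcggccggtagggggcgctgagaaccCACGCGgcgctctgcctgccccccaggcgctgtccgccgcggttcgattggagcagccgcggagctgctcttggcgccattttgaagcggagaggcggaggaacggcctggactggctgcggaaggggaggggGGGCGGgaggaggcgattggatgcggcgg
Wapal: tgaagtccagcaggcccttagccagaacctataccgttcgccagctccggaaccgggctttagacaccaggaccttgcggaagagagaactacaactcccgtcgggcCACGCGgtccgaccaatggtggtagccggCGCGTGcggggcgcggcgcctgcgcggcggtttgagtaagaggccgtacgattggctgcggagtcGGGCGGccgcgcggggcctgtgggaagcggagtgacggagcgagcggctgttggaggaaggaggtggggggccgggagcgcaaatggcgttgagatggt
Pds5b holds 4 matches to CACGCG, Pds5a and Wapal 2 each and Smc3 none.

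The rest of the cohesin pathway was read from a list of 11 genes written down from general knowledge, with earlier results of these data known. None of them was called by edgeR or DESeq2, none had an unadjusted edgeR p under 0.05, and 9 had a log2FC below 0, as had 48.5% of all tested genes. The acetyltransferases that modify SMC3 were among the most abundant. Esco1, which acts through the cell cycle, had 453 and 553 FPKM in DMSO and 525 and 513 FPKM in treated libraries. Esco2, which acts in S phase to set cohesion, had 504 and 463 FPKM in DMSO and 292 and 333 FPKM in treated libraries. In FPKM the groups overlapped for Esco1 and not for Esco2, while in CPM neither gene's groups overlapped and both were lower in the treated libraries. The log2FC was -0.78 for Esco2 (SE 0.38, edgeR adjusted p = 0.360) and -0.09 for Esco1 (edgeR adjusted p = 0.920). The ratio of Esco2 to Esco1 was 1.11 and 0.837 in DMSO and 0.557 and 0.650 in treated libraries, a ratio chosen after the values were seen. Cdca5 encodes sororin, which protects acetylated cohesin from WAPL, and had 282 and 219 FPKM in DMSO and 141 and 177 FPKM in treated libraries. Its log2FC was -0.81 (SE 0.39, edgeR adjusted p = 0.357) and -0.46 without DMSO replicate 1. The deacetylase gene Hdac8 had 1.66 and 5.82 FPKM in DMSO and 7.76 and 4.44 FPKM in treated libraries, with overlapping groups.

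Genes for the removal of cohesin at mitosis ranged from low to very abundant. Pttg1 encodes securin, the inhibitor of separase, and had the highest level of the list, with 2181 FPKM in both DMSO libraries and 2169.5 and 2449 FPKM in treated libraries. Its log2FC was -0.05 (SE 0.37, edgeR adjusted p = 0.959). The separase gene Espl1 was at 6.61 to 9.86 FPKM and its log2FC was -0.29 (adjusted p = 0.762 by edgeR). The shugoshin genes, whose products shield centromeric cohesin, had 86.0 to 148 FPKM (Sgol1) and 40.5 to 63.5 FPKM (Sgol2a), with log2FC of -0.17 and -0.22 and overlapping groups. The mitotic kinase genes Plk1 and Gsg2 (which encodes haspin) had log2FC of -0.65 and -0.69 (adjusted p = 0.447 and 0.421 by edgeR), and their groups did not overlap. Leaving out DMSO replicate 1 gave -0.26 for Gsg2, and leaving out inhibitor-treated replicate 1 gave -0.36 for Plk1. Groups did not overlap in CPM for 5 of the 11 genes (Esco1, Esco2, Cdca5, Plk1 and Gsg2), each lower in the treated libraries, where 28.3% of all tested genes were lower without overlap and 57.3% did not overlap in either direction. The fit with DMSO replicate 1 as the lone DMSO library called Cdca5 and Gsg2 as lower, 2 of the 11 genes beside 14.9% of all tested genes, and no other fit called a gene of this list.

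The meiotic subunits were present to very different degrees. Smc1b, the meiotic form of Smc1a that oocytes make, had 35.8 and 56.4 FPKM in DMSO and 32.3 and 62.2 FPKM in treated libraries. Smc1b was above Smc1a in every library, by 3.39-fold and 4.21-fold in DMSO and 2.46-fold and 4.14-fold in treated libraries. The log2 ratio of Smc1b to Smc1a was 1.91 ± 0.22 (SD, n = 2) in DMSO and 1.67 ± 0.53 (SD, n = 2) in inhibitor libraries, and the groups overlapped (exact permutation test, two-sided p = 0.667). The log2FC of Smc1b was -0.09 (SE 0.42, edgeR adjusted p = 0.933). Stag3, the meiotic STAG, was at 0.70 to 1.34 FPKM, so that Stag2 was 27.9 to 67.5 times higher. The meiotic kleisin Rec8 had counts of 0 and 12 in DMSO and 44 and 7 in treated libraries, and Rad21l had counts of 0 and 2 in DMSO and 20 and 0 in treated libraries. A count of 0 allows up to 3 counts, or 0.180 CPM in DMSO replicate 1 and 0.143 CPM in inhibitor-treated replicate 2, by counting error alone. Ctcfl, the germline paralog of Ctcf, had counts of 32 and 9 in DMSO and 5 and 3 in treated libraries and was too low to be tested. In no library did Stag3, Rec8, Rad21l or Ctcfl reach 1.5 FPKM.

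**Figure D4:**
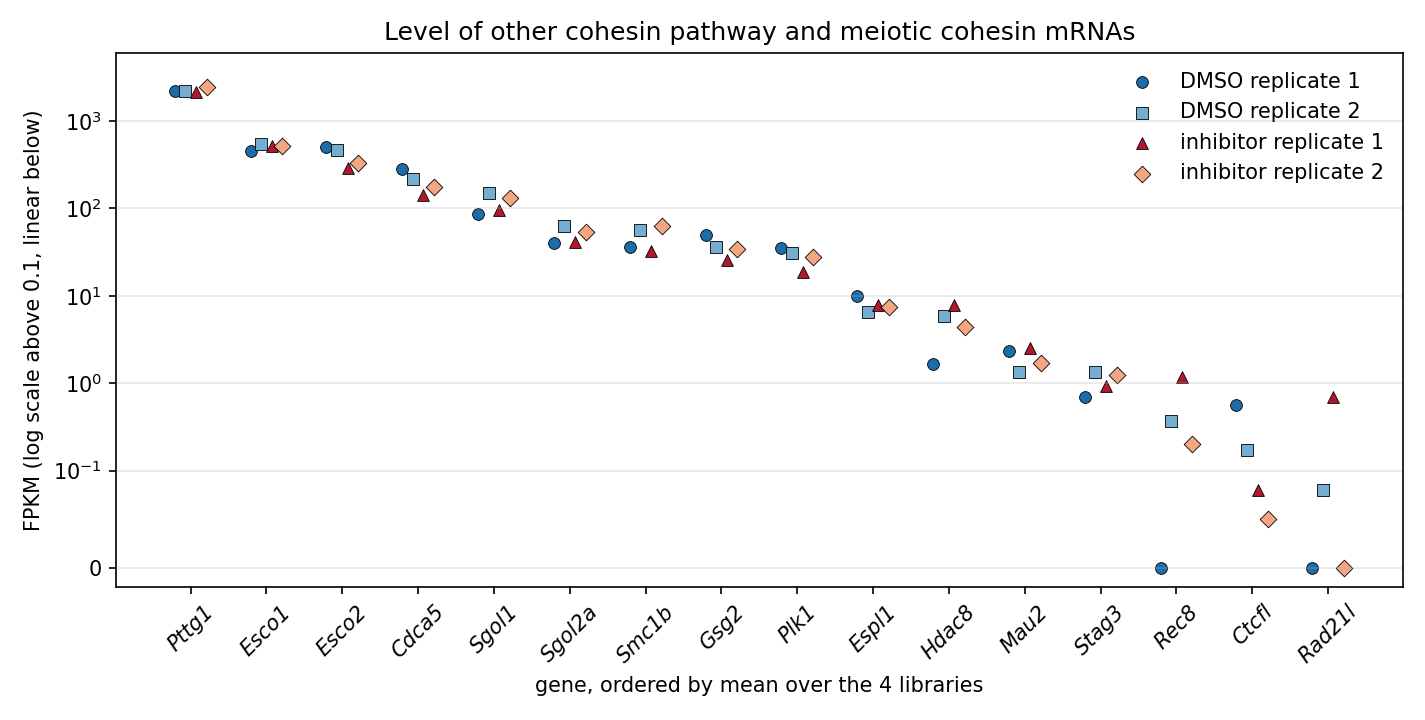
The vertical axis gives FPKM, on a log scale above 0.1 and a linear scale below, for 16 other genes of the cohesin pathway and its meiotic forms, with 1 point for each of the 4 libraries. Pttg1 lies near 2000 FPKM, Smc1b between 32.3 and 62.2 FPKM and the other meiotic genes below 1.5 FPKM, and the treated points of Esco2 and Cdca5 lie below their DMSO points.

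The related SMC complexes and other factors near CTCF sites were compared for context. Of 15 condensin and SMC5/6 genes, 10 had a log2FC below 0, beside 48.5% of all tested genes, and 0 were called. Their median log2FC was -0.13, against 0.04 for all tested genes. In CPM the treated libraries were lower without overlap for 7 of them and higher for 2, beside 28.3% and 28.9% of all tested genes. The 2 higher genes were Smc6 (log2FC 0.59, adjusted p = 0.475 by edgeR) and Ncaph (log2FC 0.91, adjusted p = 0.381 by edgeR). Without DMSO replicate 1 their log2FC was 0.35 and 0.81. Ndnl2, which encodes the SMC5/6 subunit NSMCE3, had the smallest p of this list, with 113 and 75.4 FPKM in DMSO and 45.2 and 56.0 FPKM in treated libraries (log2FC -1.06, SE 0.42, edgeR unadjusted p = 0.0365 and adjusted p = 0.333). Its log2FC was -0.57 when DMSO replicate 1 was left out. Smc5 had 15.7 and 7.98 FPKM in DMSO and 4.61 and 7.36 FPKM in treated libraries (log2FC -1.17, adjusted p = 0.343 by edgeR), and this value was -0.42 without DMSO replicate 1. The most abundant genes of the list, Nsmce4a and Nsmce2, had log2FC of -0.49 and -0.69 (adjusted p = 0.528 and 0.407 by edgeR), and -0.15 and -0.28 without DMSO replicate 1. Of 5 zinc finger factors found near CTCF or at loop ends, 4 were tested, and 0 were called. These 4 had a log2FC below 0, beside 48.5% of all tested genes, and groups that did not overlap, beside 28.3% of all tested genes in that direction. Yy1 had 82.0 and 75.7 FPKM in DMSO and 54.2 and 64.1 FPKM in treated libraries (log2FC -0.57, adjusted p = 0.446 by edgeR), and its log2FC was -0.36 when DMSO replicate 1 was left out. Zfp143 had 52.5 and 63.1 FPKM in DMSO and 49.5 and 48.0 FPKM in treated libraries (log2FC -0.38, adjusted p = 0.586 by edgeR). Adnp was near the detection limit, with counts of 25 and 79 in DMSO and 22 and 3 in treated libraries.

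The profile shared by the 10 genes was weak. Centred on each gene's mean, their median log2 CPM was 0.22 and 0.00 in the DMSO libraries and -0.17 and -0.26 in the treated libraries. The step between the DMSO replicates lay in size between the steps from DMSO replicate 2 to each treated library. Single genes departed from this median by a Euclidean distance over the 4 libraries of 0.259 (Stag2) to 0.931 (Nipbl). Among 5140 other genes whose FPKM averaged 10 or more, the nearest to it were Usp7, which encodes a deubiquitinase (distance 0.107), Med1, a Mediator subunit gene (0.110), and Prpf39, a splicing factor gene (0.116). With 4 libraries many genes share such a profile, and this likeness carries no test.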

How the data were processed

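The authors prepared polyadenylated SMART-Seq libraries, aligned read pairs to mm10 with STAR (2.7.10, per the labels), kept uniquely mapped reads and quantified RefSeq genes with RSEM (1.3.3). The deposited expected count is an unnormalized estimate of fragments per gene. The deposited TPM (used only to check units) and FPKM are scaled to effective length and library.

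Here expected counts were rounded, filtered with filterByExpr (minimum count 10, minimum total 15), scaled with TMM factors (0.873 to 1.06) and tested with the quasi-likelihood test of edgeR 4.0.16 in R 4.3.3, without a block. Ratios of FPKM used a pseudocount of 0.1 on the log2 scale. Alternatives used DESeq2 1.42.0, limma 3.58.1, other scalings, filters and each library left out. The scripts were checked on simulated counts. Lists and members were chosen with earlier results of these data known. Named were the 10 genes, the cohesin pathway and meiotic lists, and of the other lists the 2 genes with the smallest p and the 2 with the highest mean FPKM, plus the 3 genes nearest in profile. Gene spans came from RefSeq and exon overlaps from GENCODE M21, both GRCm38.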

Additional observations from a re-analysis of the deposited data

How the results depend on the processing

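The number of cohesin and Ctcf genes called was 0 under every alternative except without DMSO replicate 2, so that leaving out single libraries gave 0 to 2. The range was also 0 to 2 for the other cohesin pathway genes and for the condensin and SMC5/6 genes, and both reached 2 without DMSO replicate 2. Fits that leave out a library have 1 library in a group and take the spread from the other group. Over all tested genes the count of 0 by edgeR (2013 at an unadjusted p under 0.05) became 566 with DESeq2, 524 with DESeq2 on all genes with a count, 512 when transcript lengths were added, 644 without the filter on low counts, 44 with the replicate number as a block, and 0 to 4172 with each library left out. Deviations of libraries with the same replicate number from their group means had an r of -0.03 over genes. With 2 libraries a group, this r cannot decide whether libraries with the same number were paired. The block called none of the 10 genes. Library totals in place of TMM factors moved the median log2FC of all tested genes from 0.04 to 0.17 and that of the 10 genes from -0.30 to -0.16, and limma on log2(FPKM + 1) gave -0.15 for the 10 genes. Leaving out single libraries gave medians of -0.43 to -0.19 for the 10 genes, and no alternative changed its direction. In the same fits the log2FC ran from -0.40 to 0.52 for Stag1, -0.012 to 0.39 for Wapal, -0.43 to 0.63 for Mau2, -0.39 to 0.13 for Sgol1, -0.43 to 0.049 for Sgol2a, -0.64 to 0.20 for Espl1, -0.17 to 0.094 for Pttg1, -0.62 to 0.34 for Smc1b and -0.32 to 0.34 for Stag3, and the log2 ratio difference of Smc1b to Smc1a from -0.62 to 0.13. Mau2 was -0.015 with DESeq2, with its size factors in edgeR and with DESeq2 on all genes with a count, and -0.010 when lengths were added. With library totals, Esco1 was at 0.045, Pttg1 at 0.10, Smc1b at 0.037 and Stag3 at 0.075, and with limma on log2(FPKM + 1) and log2(FPKM + 0.1) Esco1 was at 0.051 in both, Pttg1 at 0.080 in both and Stag3 at 0.053 and 0.12. The causes of these shifts were not tested. The biological coefficient of variation between libraries over all tested genes was 0.557, while counting error for the lowest count among the 10 genes, 747, was 3.66%.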
